A study of Homo sapiens with 8 samples.

Results

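The antiprogestin RU-486 was added to progesterone in U373 cells, and the 2 arrays of cells given both steroids were compared with the 2 arrays of cells given progesterone alone. Every probe set that the platform annotation pairs with 1 gene symbol was taken, and where a gene had several, the probe set with the highest mean was kept. The rule left 18417 genes, drawn from 19460 such probe sets among the 33297 on the array, and it used 4 of the 8 arrays of the series.

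U373 is an established human astrocytoma cell line, written U37 in the cell line field of the labels. All cells were held in medium with hormone-free serum before treatment, and RNA was taken 12 h after treatment began. The 4 groups were vehicle, progesterone at 10 nM, RU-486 at 1 µM, and a combination of 10 nM progesterone with 1 µM RU-486, each with 2 arrays. RU-486 is the name in the titles, whereas some sample descriptions give RU-484, which was read as the same compound. Replicates are called biological, but the labels do not say whether they came from separate cultures, so p-values here measure only the spread between these samples, which may be technical.

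Progesterone binds a nuclear receptor, encoded by PGR, which acts as a transcription factor, as well as membrane receptors of the PAQR family and the PGRMC proteins. RU-486, or mifepristone, occupies the nuclear progesterone receptor and the glucocorticoid receptor and holds them in a form that recruits corepressors. Adding it to the hormone asks which genes differ when the hormone is present but its nuclear receptor is blocked. Any action of RU-486 that does not pass through progesterone would appear in the same comparison. Values of RU-486 without progesterone are therefore given for some of the genes and lists.

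Identity markers of glial cells were measured on every array. VIM, an intermediate filament gene of astrocytes and mesenchymal cells, had a mean log2 level of 13.37, and S100B, a glial calcium-binding protein gene, 9.59. GFAP, the astrocyte filament gene, was at 7.54. AQP4, the water channel of mature astrocytes, was at 4.19, below the 95th percentile of 338 olfactory receptor genes, 6.23, which is used here as the upper edge of the signal from genes not transcribed. Of the 15 astrocyte and glioma stem markers measured, 11 lay above that edge by their mean, and their summed log2 level ran from 132.9 to 134.3 on the progesterone arrays and from 132.7 to 133.4 on the combination arrays.

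None of the 18417 genes passed an adjusted p of 0.05 (limma with Benjamini-Hochberg adjustment, background 0.0%), and the smallest adjusted p was 0.0777, shared by 7 genes. At an unadjusted limma p under 0.05 lay 2686 genes, 1858 of them higher in the combination (10.1% of all genes) and 828 lower (4.5%), where 921 in all would be reached with no difference and an equal spread. With quantile normalization these were 1363 higher and 1066 lower, and with array medians subtracted 2497 higher and 612 lower, so the balance between the directions moved with the scaling. The count also rests on single arrays: it was 718 higher and 202 lower without combination replicate 1, close to the number reached with no difference, and 3343 higher and 2075 lower without progesterone replicate 1. On the 4 arrays of both groups alone it was 701 higher and 503 lower. The SEs, intervals and p-values of the fit assume a common spread for all 4 groups, though the progesterone arrays varied more. With array weights, 0.34 for each progesterone array and 1.19 to 1.67 for the others, the count was 866 higher and 386 lower. The smallest limma adjusted p was then 0.332. A simpler description asks whether the 2 arrays of one group both lie above those of the other. Both combination arrays lay above both progesterone arrays for 5167 genes, a background of 28.1%, and below for 2326 genes, a background of 12.6%. The shares of gene lists below are to be read against these values. With 2 arrays against 2, an exact two-sided permutation test of a single gene cannot go below a p of 0.333.

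Size and direction did not run together. Over 1.5-fold, 503 genes were lower and 64 higher, although more genes were on the higher side at an unadjusted p under 0.05. The 2 progesterone arrays differed from each other more than any other pair, with an SD over genes of 0.35 for the log2 difference between replicates against 0.16 to 0.18 in the other groups. Of the 503 lower genes, 500 were higher on progesterone replicate 2 than on replicate 1. Their median difference from the mean of the combination arrays was -0.29 when taken from progesterone replicate 1 and -1.18 when taken from replicate 2. For the 64 higher genes the medians were 0.81 and 0.76. Over all genes the median was -0.0065 from replicate 1 and 0.093 from replicate 2, beside which list medians taken from 1 progesterone array are to be read. Without progesterone replicate 1 the number of genes past the threshold was 1090, of which 307 were higher and 783 lower, and it was 0 without any other single array.

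By smallest p, the leading 12 genes on the higher side were, with 2 exceptions, members of the amino acid lists described below, and all 12 lay over 1.5-fold. In this and the next paragraphs a difference is the log2 level of the combination minus that of progesterone, with its SE from the fit. ASNS makes asparagine from aspartate and glutamine. Its log2 level was 8.62 and 8.52 on the progesterone arrays and 9.84 and 9.87 on the combination arrays. The groups were well apart, with a difference of 1.28 ± 0.12 (2.44-fold, 95% interval 1.00 to 1.57 on the log2 scale, limma adjusted p = 0.0777). CHAC1, an enzyme that breaks down glutathione, was at 7.77 and 7.58 with progesterone and at 8.83 and 8.78 with both steroids. Both combination arrays again lay clear of both progesterone arrays, and the difference was 1.13 ± 0.10. PCK2, the mitochondrial phosphoenolpyruvate carboxykinase, was at 8.30 and 8.18 against 9.29 and 9.30, a difference of 1.05 ± 0.11. SESN2, a stress-induced restraint on mTORC1, stood at 7.29 and 7.36 against 8.30 and 8.10, a difference of 0.88 ± 0.09. The vehicle arrays of SESN2 were between these groups, at 7.68 and 7.64.

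The transcription factor ATF4 itself was among the 12. ATF4 is translated when amino acids are short or the ER is stressed, and it drives genes of amino acid synthesis, uptake and tRNA charging. Its own transcript was at 10.41 and 10.45 on the progesterone arrays and at 11.09 and 10.95 on the combination arrays. That difference, 0.59 ± 0.08, was the smallest of the 12. NUPR1, a small stress-induced chromatin protein gene, was at 10.10 and 9.70 against a combination mean of 10.94, with a difference of 1.04 ± 0.14. Here the progesterone arrays were 0.40 apart, yet both stayed below the combination. Adjusted p-values of the 12 ran from 0.0777 to 0.185 in limma, so none passed.

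**Figure D1:**
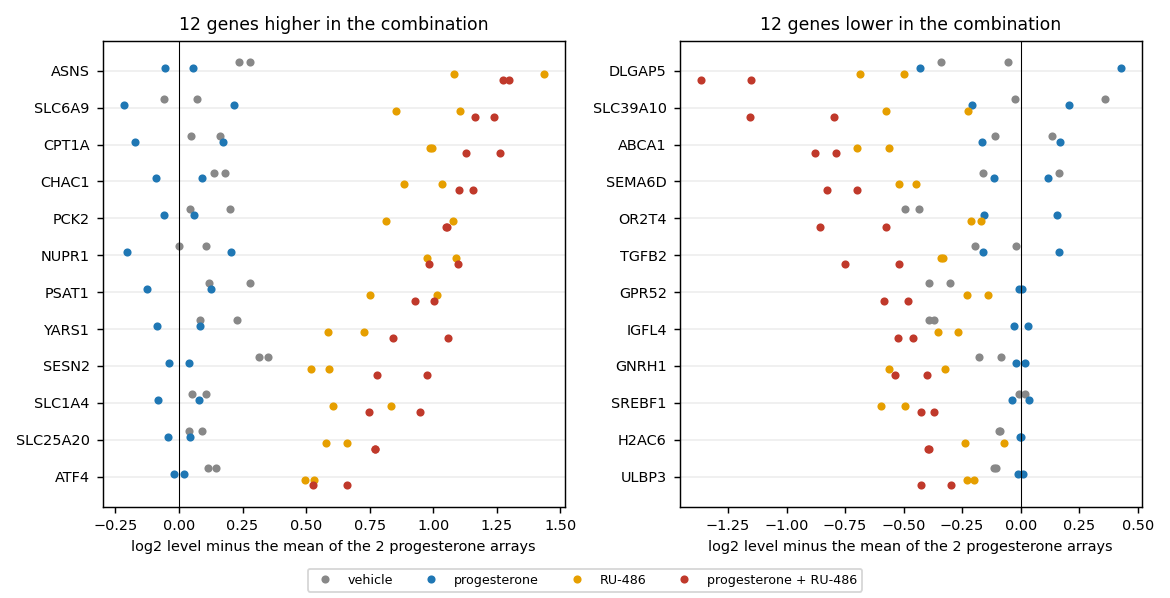
Log2 level on each of the 8 arrays minus the mean of the 2 progesterone arrays (x axis) for the 12 higher and 12 lower genes with the smallest p and no overlap (rows); each point is 1 array, coloured by group. In the left panel all RU-486 points lie on the side of the combination points, and in the right panel the 2 DLGAP5 progesterone arrays lie far apart, at 9.49 and 10.35 before centring.

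The amino acid response was followed through 4 lists: genes induced by ATF4 or by amino acid shortage, enzymes of serine and one-carbon metabolism, amino acid transporters, and cytosolic aminoacyl-tRNA synthetases. Of their 67 measured genes, 52 had both combination arrays above both progesterone arrays (77.6%) and 3 below (4.48%). At an unadjusted p under 0.05 there were 41 genes on the higher side (61.2%) and 0 on the lower side. Their median difference was 0.36, where the median over all genes was 0.03. Left without the named higher genes, the remaining 57 had a median of 0.29, with 42 above and 3 below.

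Within the induced genes, 19 of 24 lay above and 1 below, with a median of 0.38. GDF15, a stress-induced cytokine, had one of the widest differences, 1.18 ± 0.22, and TRIB3, a pseudokinase that feeds back on ATF4, differed by 0.83 ± 0.15. DDIT3, which encodes the stress factor CHOP, differed by 0.69 ± 0.10, and ATF3, a related transcription factor, by 0.39 ± 0.10. KLHL24, the 1 member below, was at 9.66 and 10.25 with progesterone and 9.39 and 9.54 with both. The progesterone arrays of KLHL24 were themselves further apart than the groups. Unlike ATF3, the genes GDF15, TRIB3, DDIT3 and KLHL24 were picked after their values were seen.

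Serine is made from a glycolytic intermediate by PHGDH, PSAT1 and PSPH, and SHMT2 and MTHFD2 pass its carbon into mitochondrial folate. PHGDH was at 10.51 and 10.18 on the progesterone arrays and 11.33 and 11.26 on the combination arrays, a difference of 0.95 ± 0.14. PSAT1 stood at 9.96 and 9.71 against 10.76 and 10.83, a difference of 0.96 ± 0.13. MTHFD2 differed by 0.67 ± 0.11 and SHMT2 by 0.49 ± 0.11. In this list 10 of 12 genes lay above and 1 below, with a median of 0.34. The genes of the pathway from PHGDH to mitochondrial folate were on the same side, with no overlap in each of the 4 given here.

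Among transporters 8 of 12 genes lay above and 1 below, with a median of 0.35. SLC6A9, a glycine transporter, was at 8.68 and 8.24 with progesterone and 9.70 and 9.63 with both steroids, a difference of 1.20 ± 0.16. SLC1A4, an exchanger of neutral amino acids, differed by 0.85 ± 0.12, SLC7A1, the arginine and lysine carrier, by 0.57 ± 0.12, and SLC3A2, the heavy chain of several exchangers, by 0.55 ± 0.11. SLC38A2, a sodium-coupled carrier chosen here because it was the member below, had a difference of -0.34 ± 0.16. Transfer RNA synthetases gave 15 of 19 above and 0 below, with a median of 0.28. YARS1, which charges tyrosine, was at 10.33 and 10.16 against 11.30 and 11.09, a difference of 0.95 ± 0.11. The synthetases for cysteine, glycine and tryptophan, CARS1, GARS1 and WARS1, differed by 0.72 ± 0.10, 0.59 ± 0.10 and 0.55 ± 0.09.

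**Figure D2:**
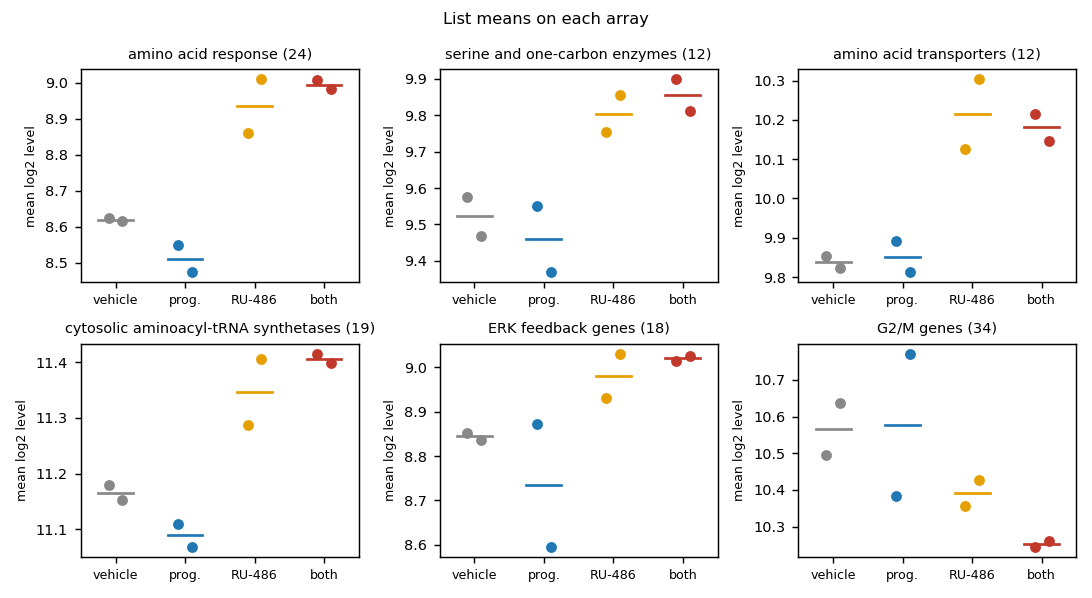
Mean log2 level over the members of 6 gene lists (y axis) on each array, by group (x axis); points are arrays, lines the mean of 2 arrays, and the number of genes is in brackets. For the 4 amino acid lists both combination arrays lie above both progesterone arrays, and for G2/M genes the progesterone arrays are apart, at 10.38 and 10.77, against 10.24 and 10.26 for the combination.

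ATF4 pairs with C/EBP proteins at a short element, written TGATGNAA, and promoters that hold it are shown so that its letters can be seen in genes of these lists. ASNS and CHAC1 are among the leading higher genes, and AARS1 and MTHFD1L are a synthetase and a folate enzyme chosen after their matches were seen. Sequences are from RefSeq promoter windows (GRCh38.p14, 250 bases before to 50 after the start site, 1 window per gene). Matches to TGATGNAA on either strand are in capitals. The stretch for ASNS is chr7:97872429-97872516 on the minus strand and that for CHAC1 is chr15:40953222-40953309 on the plus strand. AARS1, the alanine synthetase gene, is at chr16:70289646-70289733 on the minus strand, and MTHFD1L, a mitochondrial folate enzyme gene, at chr6:150866317-150866404 on the plus strand. All 4 stretches end before the start site.
ASNS: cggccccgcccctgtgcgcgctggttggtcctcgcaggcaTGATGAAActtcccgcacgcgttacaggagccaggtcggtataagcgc
CHAC1: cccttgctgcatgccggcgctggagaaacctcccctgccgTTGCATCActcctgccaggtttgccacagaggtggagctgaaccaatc
AARS1: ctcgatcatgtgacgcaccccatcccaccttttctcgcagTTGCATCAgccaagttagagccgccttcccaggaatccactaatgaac
MTHFD1L: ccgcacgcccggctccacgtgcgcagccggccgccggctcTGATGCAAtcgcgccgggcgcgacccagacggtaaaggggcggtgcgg
The element lay in the window of 15 of 56 genes of the 4 lists that have a window (26.8%), against 361 of 14239 measured genes with one (2.54%). AARS1 differed by 0.62 ± 0.11 and MTHFD1L by 0.39 ± 0.10. Members with the element did not stand apart from members without it. Of the 15, 11 lay above, with a median difference of 0.40, and of the other 41, 35 lay above, with a median of 0.34. Over all 361 genes that hold these letters the median was 0.02, with 91 above and 55 below. A match is a run of letters and not evidence of binding.

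Genes of lipid handling stood on both sides. CPT1A, the gatekeeper for entry of long-chain fatty acids into mitochondria, was at 9.89 and 9.54 on the progesterone arrays and 10.97 and 10.84 on the combination arrays, a difference of 1.20 ± 0.13. SLC25A20, which carries the acylcarnitines made by CPT1A across the inner membrane, was at 8.05 and 7.97 against 8.78 and 8.78, a difference of 0.77 ± 0.08. These 2 steps of 1 shuttle were the only members of the fatty acid oxidation list over 1.5-fold. Of its 26 measured members, 17 lay above and 1 below, with a median of 0.18. The beta-oxidation enzymes ECI2 and HADHB differed by 0.34 ± 0.08 and 0.33 ± 0.08.

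Some cholesterol efflux genes stood lower. ABCA1, the exporter that loads cholesterol onto apolipoproteins, was at 9.96 and 10.29 with progesterone and 9.25 and 9.34 with both steroids, a difference of -0.83 ± 0.14 (1.78-fold, limma adjusted p = 0.209). SREBF1, which encodes a driver of fatty acid synthesis and is itself a target of the liver X receptor, stood at 10.82 and 10.75 against 10.41 and 10.36, a difference of -0.40 ± 0.08. MYLIP, a ubiquitin ligase that degrades the LDL receptor, had a difference of -0.27 ± 0.09. These 3 are known targets of the liver X receptor, and in each the groups did not overlap. Over the 13 measured members 4 lay below and 1 above. The member above was APOC1, an apolipoprotein gene, at 6.95 and 6.66 against 7.08 and 7.09, a difference of 0.28 ± 0.16. The median of the list was -0.09, and it was 0.04 without progesterone replicate 1 and -0.21 without replicate 2. Sterol and fatty acid synthesis genes had a median of 0.10, with 11 of 23 above and 3 below. That median was 0.028 without progesterone replicate 2 and 0.15 without replicate 1. With RU-486 alone against vehicle, 3 of the 23 lay above and 8 below, with a median of -0.04. SQLE, the squalene epoxidase gene, differed by 0.42 ± 0.11.

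Genes that report on growth factor signalling were higher at several points. The ERK feedback list holds phosphatases, Sprouty proteins and ETV factors that are transcribed when the kinase ERK is active. Of its 18 measured members 13 lay above and 2 below, with a median of 0.29. ETV4, a transcription factor, was at 7.77 and 7.55 against 8.62 and 8.25, a difference of 0.78 ± 0.14. DUSP6, the ERK phosphatase, differed by 0.66 ± 0.16 and SPRY2 by 0.63 ± 0.12. The list mean was 8.87 and 8.59 on the progesterone arrays, 9.01 and 9.03 on the combination arrays, and 8.85 and 8.84 with vehicle. Progesterone replicate 1 was therefore close to vehicle, and replicate 2 below it. The list median was 0.18 without progesterone replicate 2 and 0.40 without replicate 1.

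Immediate early genes had 12 of 26 above and 2 below, with a median of 0.14 that was 0.004 without progesterone replicate 2. KLF10, a zinc finger factor of the TGF-beta response, differed by 0.28 ± 0.08, and MYC by 0.50 ± 0.13. VEGFA, the vascular growth factor, was at 8.93 and 8.85 with progesterone and 9.45 and 9.37 with both, a difference of 0.52 ± 0.10. PDGFA, a platelet-derived growth factor chain, was at 8.51 and 8.36 against 9.04 and 8.77, a difference of 0.47 ± 0.11. On the combination arrays both VEGFA and PDGFA were above the level of every progesterone array. FGF2, another growth factor gene, went the other way and had the lowest difference of the list, -0.43. Its difference was -0.59 without progesterone replicate 1 and -0.28 without replicate 2. Over all 20 glioma growth factors and receptors 9 lay above and 2 below, with a median of 0.04 that was 0.13 without progesterone replicate 1.

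The antioxidant factor NRF2 had 8 of 15 measured targets above and 0 below, with a median of 0.15. HMOX1, the heme oxygenase gene, was at 10.14 and 9.62 against 10.78 and 10.55, a difference of 0.78 ± 0.18. Folding factors of the ER had 13 of 19 above and 2 below, with a median of 0.15. HERPUD1, a part of ER-associated degradation, differed by 0.40 ± 0.12, and XBP1, a factor of the unfolded protein response, by 0.29 ± 0.08. HSP90B1, an abundant ER chaperone gene, had a difference of -0.45 ± 0.12. Circadian clock genes had 10 of 18 above and 3 below, with a median of 0.09 (0.057 without progesterone replicate 2), among them NPAS2 at 0.48 ± 0.08 and BMAL1 at 0.34 ± 0.08, which encode partners in the activating arm of the clock.

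Targets of the receptors that RU-486 blocks were described from known genes. The list of glucocorticoid receptor targets had 11 of 25 above and 2 below, with a median of 0.10 that was 0.19 without progesterone replicate 1. SGK1, a kinase gene induced by corticosteroids, was at 9.02 and 8.99 with progesterone and 9.40 and 9.48 with both, a difference of 0.44 ± 0.09. FKBP4, in the list although it encodes a cochaperone of the receptor, differed by 0.30 ± 0.09. DDIT4, an inhibitor of mTORC1 that is also in the amino acid response list, differed by 0.36 ± 0.08. Genes listed as progesterone receptor targets, from work in breast and endometrium, had 9 of 29 above and 5 below, with a median of 0.0001. That median was -0.11 without progesterone replicate 2 and 0.15 without replicate 1, so its sign rests on 1 array. The share of these above, below or overlapping was near that of all genes. KLF4, an epithelial transcription factor in that list, differed by 0.43 ± 0.10. The palindromic element that both receptors read was searched as GNACANNNTGTNC on both strands, and it lay in 37 of 14239 promoter windows (0.26%). It lay in 0 of 18 windows of the glucocorticoid list and 0 of 20 of the progesterone list. At a share of 0.26%, a match in so few windows is unlikely in any case, so no conclusion is drawn.

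Of the 12 leading genes on the lower side, 1 belongs to cell division. DLGAP5, a spindle assembly gene, was at 9.49 and 10.35 on the progesterone arrays and 8.55 and 8.77 on the combination arrays. The combination lay below both, but the progesterone arrays were 0.86 apart, and the difference was -1.26 ± 0.26 (2.40-fold, limma adjusted p = 0.255). Of 34 G2/M genes, transcribed before and during mitosis, 15 lay below and 3 above, and 12 were on the lower side at an unadjusted p under 0.05 with 0 on the higher side. The median was -0.13. Members ran from -1.26 to 0.18, and were uneven. ANLN was at -0.95 ± 0.24 and BUB1, a spindle checkpoint kinase gene, at -0.41 ± 0.10, and the arrays of 16 members overlapped. For 27 of the 34 genes progesterone replicate 2 was above replicate 1, and the median was -0.04 from replicate 1 and -0.18 from replicate 2. The part of this replicate difference in the result was not tested. With RU-486 alone against vehicle, 1 of the 34 lay above and 22 below, with a median of -0.09. Over all genes 24.0% lay above and 15.7% below in that comparison.

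Many G2/M promoters hold the cell cycle gene homology region, TTTGAA, which the MuvB complex reads. Stretches of 5 members with the letters are shown as examples, with each match before the start site in capitals. DLGAP5 is at chr14:55191649-55191763 on the minus strand, HMMR, a spindle and hyaluronan-binding gene, at chr5:163460564-163460631 on the plus strand, and ANLN, the anillin gene of cytokinesis, at chr7:36389796-36389861 on the plus strand. MKI67, the gene of the Ki-67 protein, is at chr10:128126424-128126510 on the minus strand, and KIF23, a kinesin of the midbody, at chr15:69414254-69414339 on the plus strand.
DLGAP5: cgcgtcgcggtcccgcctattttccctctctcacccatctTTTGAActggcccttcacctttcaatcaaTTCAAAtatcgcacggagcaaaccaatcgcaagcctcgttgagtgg
HMMR: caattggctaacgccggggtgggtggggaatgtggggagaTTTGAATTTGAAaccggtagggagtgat
ANLN: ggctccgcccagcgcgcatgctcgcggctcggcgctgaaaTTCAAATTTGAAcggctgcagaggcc
MKI67: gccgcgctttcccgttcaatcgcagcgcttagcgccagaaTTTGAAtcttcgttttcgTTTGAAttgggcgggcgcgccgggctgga
KIF23: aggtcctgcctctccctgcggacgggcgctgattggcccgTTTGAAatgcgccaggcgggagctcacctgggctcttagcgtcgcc
HMMR and ANLN carry 2 matches next to each other. TTTGAA was found on either strand in 17 of 28 G2/M windows (60.7%) and in 1696 of 14239 windows (11.9%). The 17 had a median difference of -0.59 with 11 below and 0 above. The 11 without the letters had a median of -0.07 with 3 below and 3 above. Members with the letters were uneven: CCNB2 was at 0.04, PLK1 at 0.02 and CDC20, with 2 matches, at -0.06. CENPE, without the letters, was at -0.60 with overlapping arrays. The medians of this split were not taken from each progesterone array, and a part of the letters in the differences was not tested. Over all 1696 genes with the letters the median was -0.002, with 302 below and 373 above. HMMR, at -1.20 ± 0.46, MKI67, at -0.73 ± 0.26, and KIF23, at -0.59 ± 0.17, were chosen after their values were seen. HMMR was at 8.69 and 10.18 with progesterone against 8.12 and 8.35. All 5 differences depended on the progesterone array used. Without replicate 1 or without replicate 2 they were -1.94 or -0.45 for HMMR, -1.10 or -0.36 for MKI67, -0.84 or -0.35 for KIF23, -1.28 or -0.62 for ANLN and -1.69 or -0.83 for DLGAP5.

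Replication-dependent histones, which are made in S phase, had 14 of 36 below and 2 above, with a median of -0.11. H2AC6 was at 9.87 and 9.86 against 9.47 and 9.47, a difference of -0.39 ± 0.08. In contrast with the G2/M genes, its progesterone arrays were nearly equal. H1-3, a linker histone gene, had a difference of -0.49 ± 0.13 and H3C11 one of -0.31 ± 0.08. Genes of G1/S and DNA replication lay the other way, with 15 of 31 above and 2 below and a median of 0.10. With RU-486 alone against vehicle, however, 1 of these 31 lay above and 16 below, with a median of -0.06. CCNE1, the cyclin of S-phase entry, differed by 0.31 ± 0.09. For the 36 histones, 0 lay above and 26 below with RU-486 alone against vehicle, with a median of -0.17.

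Other lower genes came from secreted, surface and transport proteins. TGFB2, a growth factor of the TGF-beta family made by gliomas, was at 12.96 and 13.28 with progesterone and 12.37 and 12.60 with both, a difference of -0.63 ± 0.14. SEMA6D, a membrane semaphorin of axon guidance, was at 8.88 and 9.11 against 8.17 and 8.30, a difference of -0.76 ± 0.13. SLC39A10, a zinc importer, was at 7.87 and 8.28 against 6.92 and 7.28, a difference of -0.98 ± 0.21. In these 3 the combination was below both progesterone arrays, and the lower progesterone array was replicate 1 each time. ULBP3, a stress ligand seen by natural killer cells, was at 10.23 and 10.25 against 9.81 and 9.94, a difference of -0.36 ± 0.08. GPR52, IGFL4, OR2T4 and GNRH1 completed the 12, and all 4 lay below 6.23 on every array, so their differences are those of probe sets in the range of untranscribed genes.

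Interferon response genes had 10 of 29 below and 6 above, with a median of -0.09. CXCL10, a chemokine gene, was at 6.15 and 6.67 against 5.72 and 6.07, a difference of -0.52 ± 0.18. Its level was below the dim edge of 6.23 on both combination arrays and on progesterone replicate 1. The CXCL10 difference was -0.78 without progesterone replicate 1 and -0.26 without replicate 2. OAS3 and MX1, antiviral effectors, were higher by 0.28 ± 0.11 and 0.25 ± 0.07. The list mean on the progesterone arrays was 7.18 and 7.41, on either side of the vehicle arrays at 7.23 and 7.33.

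**Figure D3:**
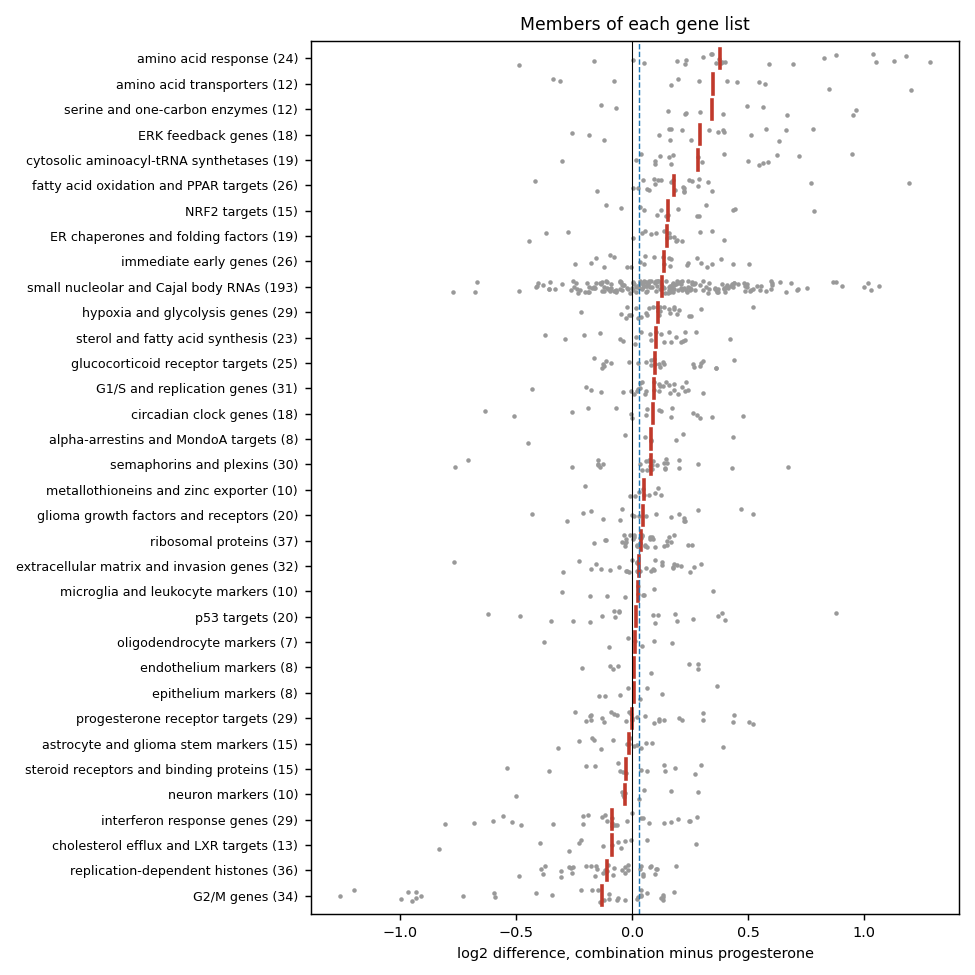
Log2 difference, combination minus progesterone (x axis), of each measured member of 33 gene lists and of the small nucleolar and Cajal body RNAs (rows, number of genes in brackets); red bars are list medians, the black line is 0 and the dashed line is the median over all genes, 0.03. The 4 amino acid lists have medians between 0.28 and 0.38, and G2/M genes are spread from -1.26 to 0.18.

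RU-486 without progesterone, compared with vehicle, shares no array with the comparison above. Replicate differences of vehicle and progesterone nevertheless correlated at 0.51 over genes, so both comparisons may share some variation. The part of this in their agreement was not tested. Over the 18417 genes the log2 differences of both comparisons had a Pearson r of 0.41 and a Spearman rho of 0.18, and over the 13326 genes above the dim edge 0.53 and 0.27. These are correlations across genes, which are not independent replicates. RU-486 arrays both lay above vehicle for 4425 genes (24.0%) and below for 2890 (15.7%). Of the 4425, 29.4% lay above in the combination comparison and 6.60% below, against backgrounds of 28.1% and 12.6%. Of the 2890, 21.6% lay below and 23.4% above. Seen from the other side, 25.2% of genes higher in the combination comparison were higher with RU-486 alone, and 26.8% of the lower ones were lower.

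All 12 named higher genes also lay above vehicle with RU-486 alone, where their differences ran from 0.22 for SESN2 to 1.00 for ASNS. ASNS was at 8.81 and 8.85 with vehicle and 9.65 and 10.01 with RU-486. Of the 12 named lower genes, 8 lay below vehicle with RU-486 alone and 3 above, with differences from -0.64 to 0.27. Selecting genes instead by RU-486 against vehicle gave 12 higher genes, of which 11 lay above in the combination comparison as well. These 12 hold 6 amino acid list genes, ASNS among them, so they are not a set apart from the named higher genes. SLC1A3, the glial glutamate transporter, was higher by 0.53 with RU-486 alone and by 0.39 ± 0.08 when the drug was added to progesterone. MST1, which encodes a hepatocyte growth factor-like protein, gave 0.56 and 0.34 ± 0.09. CLRN2, a dim probe set, was the exception, at 0.52 and -0.20. Of the 12 lower genes selected that way, 9 lay below and 3 overlapped. H1-6, the testis linker histone gene, gave -0.70 and -0.23 ± 0.10, and KRT15, a keratin gene, -0.47 and -0.41 ± 0.11. Over the 67 amino acid genes 41 lay above in both comparisons and 0 below in both, where 1300 and 623 of all 18417 did. Their median difference was 0.21 with RU-486 alone and 0.36 when it was added to progesterone.

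**Figure D4:**
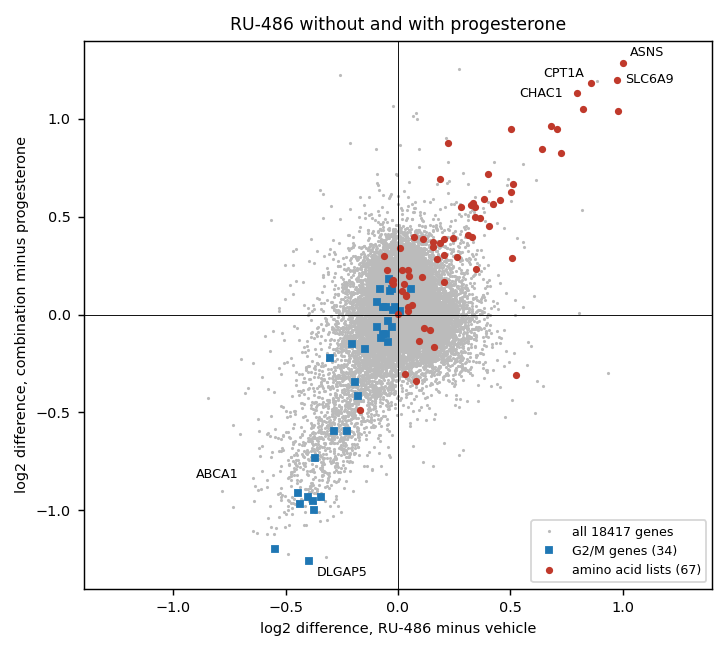
Log2 difference of RU-486 minus vehicle (x axis) against combination minus progesterone (y axis) for 18417 genes; each point is 1 gene, with the 67 genes of the amino acid lists in red and 34 G2/M genes in blue. Red points extend to the upper right, up to ASNS at 1.00 and 1.28, and blue points to the lower left, down to DLGAP5 at -0.40 and -1.26.

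Whether both RU-486 differences were equal was tested as their interaction, the difference with progesterone minus the difference without. None of the 18417 genes passed (limma adjusted p, background 0.0%), and the smallest adjusted p was 0.828. At an unadjusted limma p under 0.05 lay 972 genes, 678 above 0 (3.68%) and 294 below (1.6%). This is close to the 921 in all that would be reached with no difference and an equal spread. Among the amino acid genes, 6 of 67 were above 0 at that level and 1 was below, and 53 of the 67 had the larger difference when progesterone was present, as did 9649 of all 18417 genes. SESN2 had an interaction of 0.65 (95% interval 0.35 to 0.96), with RU-486 differences of 0.22 alone and 0.88 with progesterone. DDIT3 had one of 0.50 (0.18 to 0.83). SESN2 is among the leading higher genes, and DDIT3 was picked after its values were seen. Their difference with progesterone is a term of the interaction, so the selection favours values above 0. These intervals are not adjusted for the number of genes. For ASNS the interval was -0.12 to 0.69 and for CPT1A -0.11 to 0.73, which do not exclude 0. For ABCA1 it was -0.65 to 0.27 and for SREBF1 -0.11 to 0.42.

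Of the genes with the smallest interaction p, several were not in these lists. TIMM23, an import channel of the inner mitochondrial membrane, was at 7.05 and 7.05 with vehicle, 6.37 and 6.57 with progesterone, 6.85 and 7.07 with RU-486 and 7.09 and 7.20 with both. Its interaction was 0.76 and its difference 0.67 ± 0.11. RAMAC, a subunit of the mRNA cap methyltransferase, was at 10.46 and 10.51, 10.18 and 10.04, 10.32 and 10.40, and 10.60 and 10.65 in the same order. In both genes the combination arrays lay at or above the vehicle arrays. ZNF487, a zinc finger gene, had an interaction of -1.11, with RU-486 higher than vehicle by 0.61 and the combination below progesterone, at -0.50 ± 0.12.

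Genes that differed most between progesterone and vehicle were then followed into the combination. Both contrasts use the progesterone arrays, so a low value there raises 1 difference as it lowers the other, and the levels are given side by side. IL18, an inflammatory cytokine gene, was at 9.65 and 9.34 with vehicle, 8.84 and 8.99 with progesterone and 9.41 and 9.48 with both. STEEP1, which helps STING leave the ER, was at 8.78 and 8.79, 8.30 and 8.39, and 9.05 and 8.86 in that order. In both the combination arrays lay within or above the vehicle arrays. LGR5, a receptor for R-spondins, did not follow them. It was at 9.47 and 9.54 with vehicle, 9.01 and 9.05 with progesterone, 9.05 and 9.27 with RU-486 and 9.04 and 9.08 with both, a difference from progesterone of 0.03 ± 0.09. The 5 genes selected as higher with progesterone were dim on every array, and 4 of them lay below in the combination.

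Small nucleolar and Cajal body RNAs, which guide chemical marks on ribosomal and spliceosomal RNA, were taken as a class after their values were seen. Of 193 measured, 69 lay above and 16 below, with a median of 0.13, and 42 were on the higher side and 5 on the lower side at an unadjusted p under 0.05. The median was 0.072 without progesterone replicate 1. With RU-486 alone the median was 0.03, and 21 of the 193 had an interaction above 0 at an unadjusted p under 0.05, with 1 below. SNORA14B was at 7.30 and 7.26 with vehicle, 6.68 and 6.68 with progesterone, 7.01 and 7.13 with RU-486 and 7.63 and 7.48 with both. Its difference was 0.88 (limma adjusted p = 0.0777) and its interaction 1.09. SNORA28 was at 6.52 and 6.55, 5.68 and 6.06, 6.47 and 6.56, and 7.06 and 6.81 in the same order, a difference of 1.07. In both, progesterone alone was the lowest group. The members named here were chosen after their values were seen.

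Receptors for both steroids were measured as a description. PGR, the nuclear progesterone receptor gene, was at 4.91 and 4.55 with progesterone and 4.57 and 4.49 with both, below the dim edge of 6.23 on all arrays. NR3C1, the glucocorticoid receptor gene, was at 9.88 and 10.20 against 9.61 and 9.76, a difference of -0.36 ± 0.12. PGRMC2 and PAQR8, membrane-associated progesterone receptors, had differences of 0.07 ± 0.10 and -0.03 ± 0.10, and their arrays overlapped. PAQR6 lay at -0.05 ± 0.11. NR3C2, ESR1, PAQR5 and PAQR7 were below the dim edge on every array. A dim signal does not show that a receptor is absent.

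**Figure D5:**
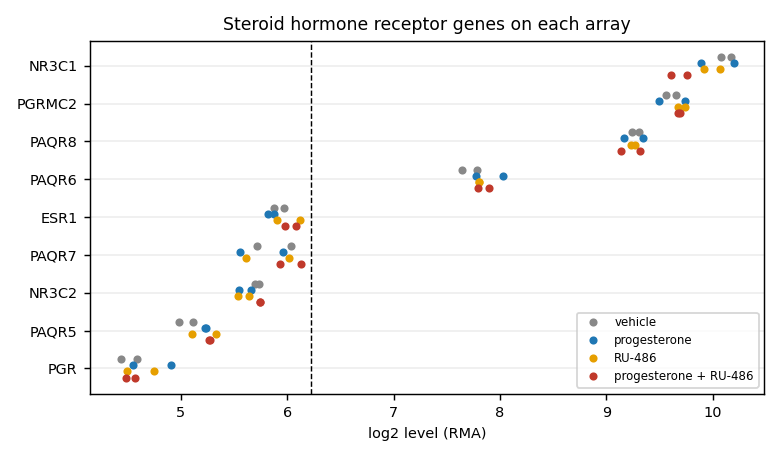
Log2 level (x axis) of 9 steroid receptor genes (rows) on each array, coloured by group; the dashed line is the 95th percentile of olfactory receptor genes, 6.23. PGR, PAQR5, NR3C2, PAQR7 and ESR1 lie to its left on all arrays, and for NR3C1 both combination arrays, at 9.61 and 9.76, lie below both progesterone arrays.

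Medians of the remaining lists, beside 0.03 over all genes, were 0.03 for extracellular matrix and invasion genes, 0.02 for p53 targets, 0.04 for ribosomal proteins, 0.05 for metallothioneins, 0.08 for semaphorins and plexins, 0.08 for alpha-arrestins, 0.11 for hypoxia and glycolysis genes and -0.03 for steroid receptors and their partners. Without progesterone replicate 1 they ran from 0.045 for steroid receptors to 0.18 for alpha-arrestins, and without replicate 2 from -0.027 for metallothioneins to 0.094 for alpha-arrestins. Single members stood out: ITGAV, the integrin alpha V gene, at -0.77 ± 0.24, MDM2, the p53 ubiquitin ligase gene, at -0.62 ± 0.19, ARRDC3, an arrestin-domain gene of receptor trafficking, at -0.45 ± 0.11, and PLXNA2, a semaphorin receptor gene, at 0.67 ± 0.14. ITGAV was at 11.01 and 11.67 with progesterone against 10.49 and 10.65, and MDM2 at 10.21 and 10.67 against 9.66 and 9.98. Without progesterone replicate 1 or without replicate 2 the differences were -1.10 or -0.44 for ITGAV and -0.86 or -0.39 for MDM2. The metallothionein MT2A, which metals and glucocorticoids induce, was at 13.93 and 13.92 against 14.03 and 14.01.

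Markers of other cell types had medians near 0. By their mean, 6 of 10 neuron, 2 of 7 oligodendrocyte, 2 of 10 microglia and leukocyte, 2 of 8 endothelium and 5 of 8 epithelium markers lay above the dim edge. Medians were -0.03 for 10 neuron markers, 0.01 for 7 oligodendrocyte markers, 0.03 for 10 microglia and leukocyte markers, 0.01 for 8 endothelium markers and 0.01 for 8 epithelium markers. PTPRC, which marks leukocytes, had a mean of 3.52 with progesterone and 3.41 with both, and EPCAM, which marks epithelium, was at 4.62 and 4.72 against 4.74 and 4.86, both below the dim edge. The summed log2 level of the microglia and leukocyte markers ran from 58.0 to 60.1 on the progesterone arrays and was 59.0 on both combination arrays.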

How the data were processed

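Total RNA of 8 samples was hybridised to Affymetrix Human Gene 1.0 ST arrays. The values deposited are on a log2 scale, with each probe set summarised on every array. Tools named in the submitters' processing notes are oligo, limma and RMA, and versions or settings are not given in the sources used here. RMA corrects background, equalises the distributions of arrays and summarises probes, so a shift shared by most genes would be removed and differences of dim genes are compressed. The 8 array medians ran from 6.93 to 7.02. Counts of reads do not exist for arrays, and their number limits the precision.

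Of 33297 probe sets, 19460 pair with 1 symbol, 1754 with several and 12083 with none listed; 769 genes had several probe sets. Probe sets with several symbols or none gave 0 calls, with 166 and 817 at an unadjusted p under 0.05. Group means of all 8 arrays entered a linear model (R 4.3.3, limma 3.58.1 with eBayes, 4 residual degrees of freedom, two-sided), and p-values were adjusted by Benjamini-Hochberg over all 18417 genes. Groups came from the sample titles.

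The members, the 33 gene lists and the rule for named genes were chosen with earlier results of these data known. The rule takes the 12 genes each way with the smallest p and no overlap, up to 4 per list by p, 12 each way from RU-486 against vehicle, 5 each way by interaction and from progesterone against vehicle, and a set of receptors. Small RNA and uncharacterised genes are passed over and counted: 6 of the 50 genes with the smallest p on the higher side and 5 of 50 on the lower side. No list was tested as a set. The fit was tested on simulated data for combination minus progesterone with 18417 genes: it recovered 22.7% of genes set apart by 0.5 log2 units, 74.6% of those at 1 and 92.5% of those at 2. The simulated arrays had the same spread in every group and independent noise. The measured progesterone arrays differed more, with an SD over genes of 0.35 against 0.16 to 0.18 in the other groups. These shares therefore check the fit and do not give its power in the measured comparison. Promoter windows were found for 21 of the 24 leading genes.

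Alternatives were a replicate block, the 4 arrays alone, each array left out, quantile normalization, array medians subtracted, genes above the dim edge only, the mean of a gene's probe sets, every probe set, array weights, and eBayes with trend and robust.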

Additional observations from a re-analysis of the deposited data

How the results depend on the processing

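The number of genes past an adjusted p of 0.05 in limma for combination minus progesterone was 0 in the design as fitted. It was 1 with array medians subtracted and 17, all higher, with eBayes set to trend and robust. With array weights it was 0, and the smallest limma adjusted p was 0.332. Leaving out single arrays gave 0 to 1090, and the 1090 arose without progesterone replicate 1; of these, 32 were amino acid list genes and 13 were G2/M genes on the lower side. With 1 array left in a group, that array is assumed to vary like the others. The replicate block gave 0 genes, with a smallest adjusted p of 0.0793, and at an unadjusted p under 0.05 it gave 2237 higher and 1527 lower genes, against 1858 and 828 without it. Over genes, replicate differences correlated in all 6 pairs of groups, from 0.20 to 0.51 (0.51 for vehicle with progesterone, 0.30 for progesterone with combination), so samples of 1 number share some variation. With only 2 numbers and no label that says what a number marks, pairing is not established. The interaction gave 0 genes under every alternative run, and the 24 leading genes kept their direction under all in which they were measured.

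Of 33 list medians, 27 moved by more than their replicate SD under at least 1 alternative, and the counts by alternative overlap. Without progesterone replicate 1 it was 16 lists, and 11 without progesterone replicate 2. Without combination replicate 1 it was 7, and 5 without combination replicate 2. Quantile normalization moved 6, the restriction to genes above the dim edge 6, and subtraction of array medians 3. Among the amino acid, lipid and G2/M lists, the values were these. For tRNA synthetases the median was 0.23 with quantile normalization and 0.24 to 0.29 leaving out single arrays. For fatty acid oxidation it was 0.21 with array medians subtracted and 0.22 above the dim edge only. For serine and one-carbon enzymes it was 0.44 above the dim edge only and 0.29 to 0.46 leaving out arrays. It was 0.37 to 0.45 for the amino acid response and -0.21 to 0.036 for cholesterol efflux genes. The sign of genes near 0 was not fixed: with array medians subtracted VIM was at 0.018 and AQP4 at 0.012. Leaving out arrays gave -0.027 to 0.012 for VIM, -0.028 to 0.0012 for AQP4, -0.18 to 0.072 for PAQR6, -0.12 to 0.065 for PAQR8 and -0.053 to 0.19 for PGRMC2. The causes were not tested. Signal limits the dim genes: 13326 of 18417 lay above the dim edge.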
